A study of Mus musculus with 12 samples.

Results

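The 38 genes of skeletal muscle described here, in wounded skin of diabetic mice, were taken by symbol from the table of estimated counts for day 3, which names 29956 genes. Of the 38 genes, 27 belong to adult muscle fibres and 11 to regenerating muscle, and the 2 sets are given apart. The adult set holds 19 contractile genes, 4 genes of calcium handling and 4 of energy supply. The regeneration set holds 5 genes of the embryonic and fetal sarcomere and 6 genes of satellite cells, myoblasts and their fusion. Myf6 is counted among these 6, although mature fibres also keep it. All 38 symbols were found, Mymk under its older name Tmem8c, and all 38 genes passed the filter on low counts.

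All 12 mice were of the genotype B6.BKS(D)-Leprdb/db. It removes the long form of the leptin receptor and makes mice obese and diabetic. All groups shared it, so no group without diabetes entered the comparisons, and their age and sex are not given in the sources used here. Full-thickness punch wounds in the back were treated with the Gram-negative bacterium Alcaligenes faecalis, with the Gram-positive pathogen Staphylococcus aureus, or with vehicle, which was PBS with 10% glycerol. The bacteria were applied in PBS, and the label for their medium names no glycerol. Each group had 4 mice, and total RNA was sequenced after removal of ribosomal RNA from skin snap-frozen on day 3.

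Mouse back skin carries its own sheet of skeletal muscle, the panniculus carnosus, which a full-thickness punch cuts through. After injury, satellite cells that express Pax7 become myoblasts, switch on Myod1 and then Myog, and fuse through the membrane protein encoded by Mymk. New fibres first build sarcomeres from embryonic and fetal parts, such as the embryonic myosin heavy chain Myh3, the perinatal chain Myh8 and the cardiac actin Actc1, and replace them later with the adult fast or slow forms.

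Library totals were 38.4 to 71.3 M (mega) estimated counts. Levels are CPM, counts per M of the scaled library size. The 38 genes together took 0.213% to 0.39% of the counts of a library. Vehicle replicate 3 stood apart. It held the highest of the 12 values for 17 of 27 adult genes and 9 of 11 regeneration genes, and its summed adipocyte markers were 16830 CPM against 2395 to 6565 CPM in the other 11 libraries. Its summed neutrophil markers were the lowest of the 12, at 840.4 CPM. For this reason the calls of the 38 genes against vehicle are counted with it and also without it. The genes given in full are given both ways for S. aureus. For A. faecalis fold changes are given for only some genes, and not all of these without it. In bulk tissue, fewer muscle cells and less RNA per muscle cell cannot be told apart, and the amount of panniculus in each sample was not recorded in the labels.

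The stretches of 250 bases before the transcription start are shown for 3 genes that fell with S. aureus (Myh3, Actc1, Mb), the 1 that rose (Des) and 2 that did not pass the test (Myog, Acta1). They come from RefSeq on build GRCm38.p6, read 5′ to 3′ towards the start, and 31 of the 38 genes were matched there. The authors' notes name GRCm39, so these coordinates do not apply to their files. The start used lay 37 bases from the nearest principal start in GENCODE M21 for Des, 24 for Acta1, 15 for Myog and 12 for Actc1. For Myh3 and Mb the distance was 0. Myh3 is at chr11:67078050-67078299 on the plus strand, Actc1 at chr2:114052876-114053125 on the minus strand and Mb at chr15:77022788-77023037 on the minus strand. Des is at chr1:75360042-75360291 on the plus strand, Myog at chr1:134289754-134290003 on the plus strand and Acta1 at chr8:123894776-123895025 on the minus strand. Capitals mark E-boxes (CANNTG), the letters that the MyoD family binds.
Myh3: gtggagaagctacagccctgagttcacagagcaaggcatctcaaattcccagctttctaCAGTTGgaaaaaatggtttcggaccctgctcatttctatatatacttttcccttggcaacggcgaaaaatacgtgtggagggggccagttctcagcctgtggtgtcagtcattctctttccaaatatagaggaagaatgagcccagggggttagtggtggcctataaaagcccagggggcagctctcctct
Actc1: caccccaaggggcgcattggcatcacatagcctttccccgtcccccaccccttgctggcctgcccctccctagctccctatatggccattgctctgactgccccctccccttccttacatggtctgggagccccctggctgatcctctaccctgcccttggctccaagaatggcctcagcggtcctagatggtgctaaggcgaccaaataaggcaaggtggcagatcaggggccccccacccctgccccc
Mb: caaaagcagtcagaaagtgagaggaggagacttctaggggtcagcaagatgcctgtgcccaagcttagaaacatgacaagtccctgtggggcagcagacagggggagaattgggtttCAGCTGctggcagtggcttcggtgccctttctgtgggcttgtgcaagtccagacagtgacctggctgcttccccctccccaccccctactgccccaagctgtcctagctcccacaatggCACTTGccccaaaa
Des: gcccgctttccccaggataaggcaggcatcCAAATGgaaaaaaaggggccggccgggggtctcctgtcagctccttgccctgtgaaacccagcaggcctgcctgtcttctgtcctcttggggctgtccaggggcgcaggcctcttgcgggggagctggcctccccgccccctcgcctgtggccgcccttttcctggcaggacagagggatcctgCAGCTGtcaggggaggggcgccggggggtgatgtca
Myog: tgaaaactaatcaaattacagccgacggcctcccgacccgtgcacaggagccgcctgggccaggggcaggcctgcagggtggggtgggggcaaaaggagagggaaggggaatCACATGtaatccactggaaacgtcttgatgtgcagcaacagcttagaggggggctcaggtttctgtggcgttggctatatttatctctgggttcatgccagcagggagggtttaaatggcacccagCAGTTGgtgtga
Acta1: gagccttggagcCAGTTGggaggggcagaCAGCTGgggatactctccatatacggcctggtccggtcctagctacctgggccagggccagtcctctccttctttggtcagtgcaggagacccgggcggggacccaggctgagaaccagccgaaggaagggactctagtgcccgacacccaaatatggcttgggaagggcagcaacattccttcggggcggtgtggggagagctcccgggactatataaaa
An E-box stood in 23 of the 31 muscle windows and in 66.2% of all 32536 windows of this length, so the letters are common. Of the 6 genes shown, Actc1 had none in its window, Myh3 had 1 and the other 4 had 2 each. A CArG box, the serum response factor motif, stood in 1.48% of all windows and in 3 of the 31, those of Acta1 (CCAAATATGG), Actc1 (CCAAATAAGG) and Myh4. A strict box for the MEF2 factors, YTAWWWWTAR, stood in 2.89% of all windows and in 5 of the 31 (Myh1, Myh4, Ttn, Pvalb, Myh8). In it Y is C or T, W is A or T and R is A or G. Near matches, such as CTATATTTAT in the Myog window, were not counted. The letters TATAAA stood in 12.3% of all windows and in 7 of the 31, and CATTCC, the core of the MCAT element, in 12.6% and in 8. Both strands were searched. These matches describe letters only.

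With S. aureus, 6 of the 38 genes passed the test against vehicle: Myh3, Actc1, Mymk, Mb and Myl1 fell, and Des rose. Of the 11 regeneration genes 3 fell (27.3%) and none rose. Of the 27 adult genes 2 fell and 1 rose (11.1% in all). Over all 18218 genes tested 6.84% were called, 2.97% lower and 3.87% higher. The median log2 fold change was -0.66 over the regeneration genes, -0.34 over the adult genes and -0.04 over all genes. Whether the 2 sets differed from each other was not tested. The 2 groups did not overlap for 5 of the 38 genes (13.2%), beside 15.1% of all genes, a share no higher than the background. At an unadjusted p under 0.05 stood 18 of the 38 (47.4%), 17 of them lower, beside 27% of all genes. Each adjusted p comes from the edgeR quasi-likelihood test, corrected by the Benjamini-Hochberg method over all genes tested. The DESeq2 Wald test called 14 of the 38 (36.8%), beside 16.1% of all genes: these 6, and Myh2, Tnnc2, Ttn, Casq1, Pvalb, Eno3, Myh8 and Myod1, all lower. The limma-voom test called 3 (7.89%), Myh3, Mb and Des, beside 7.02% of all genes. Of the 6 calls only that of Myh3 remained when the fit held just these 2 groups, or when S. aureus replicate 3 or replicate 4 was left out.

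Among the sarcomere genes of regenerating muscle, Myh3, which encodes the embryonic myosin heavy chain, had the widest spread of the 38. For Myh3, vehicle wounds held 6.37, 1.86, 14.9 and 4.37 CPM in replicates 1 to 4, A. faecalis wounds 1.15, 2.91, 2.55 and 1.64 CPM and S. aureus wounds 0.418, 0.898, 0.686 and 0.437 CPM. Every S. aureus library lay below every other library, and vehicle replicate 3 was the highest. The level was 11.2-fold lower with S. aureus than with vehicle (log2 fold change -3.48, SE 0.59, adjusted p = 0.0107). Without vehicle replicate 3 it was 6.73-fold lower (log2 fold change -2.75, SE 0.45, adjusted p = 0.0118). The S. aureus libraries held only 16 to 52 counts of Myh3 each, and 11.2% of the 31-base words of its longest transcript occur in other genes, chiefly its neighbour Myh2.

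Actc1 encodes the cardiac actin that embryonic and regenerating skeletal muscle also uses. Its levels were 4.88, 1.48, 8.25 and 1.84 CPM with vehicle, 1.25, 0.833, 1.36 and 0.806 CPM with A. faecalis and 0.653, 1.16, 0.991 and 0.437 CPM with S. aureus. Vehicle replicates 1 and 3 were high and replicates 2 and 4 lay closer to the treated wounds, yet neither treated group overlapped with vehicle. Actc1 was 5.07-fold lower with S. aureus (log2 fold change -2.34, SE 0.53, adjusted p = 0.0269) and 3.33-fold lower without vehicle replicate 3 (adjusted p = 0.0466). Of its 31-base words 0.832% occur in other genes. Myh8, the perinatal myosin heavy chain, held 6.45, 5.21, 6.07 and 7.41 CPM with vehicle, 5.29, 4.88, 5.24 and 5.95 CPM with A. faecalis and 3.68, 5.94, 3.76 and 4.102 CPM with S. aureus. The S. aureus and vehicle ranges overlapped, and the difference did not pass the test (log2 fold change -0.52, SE 0.17, adjusted p = 0.078; adjusted p = 0.119 without vehicle replicate 3). Myh8 shares 32.5% of its 31-base words with other genes, against 11.2% for Myh3.

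Myl4, an embryonic light chain that atrial muscle keeps, held 11.5, 7.74, 21.03 and 11.4 CPM with vehicle, 12.3, 9.88, 9.96 and 9.25 CPM with A. faecalis and 8.12, 12.9, 10.8 and 8.85 CPM with S. aureus. Only vehicle replicate 3 was far from the rest, and the difference between S. aureus and vehicle was -0.35 on the log2 scale (95% interval -0.91 to 0.22; adjusted p = 0.423) and 0.01 without that library. Tnnt2, the cardiac and embryonic troponin T, ranged from 1.88 to 4.73 CPM, with group means of 3.44 ± 1.21 for vehicle, 2.27 ± 0.315 for A. faecalis and 3.44 ± 0.982 for S. aureus (SD, n = 4). Its difference between S. aureus and vehicle was 0.00 (95% interval -0.61 to 0.61; adjusted p = 1), and 0.21 without vehicle replicate 3. So 2 of the 5 embryonic and fetal sarcomere genes fell with S. aureus and 3 did not pass the test.

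**Figure D1:**
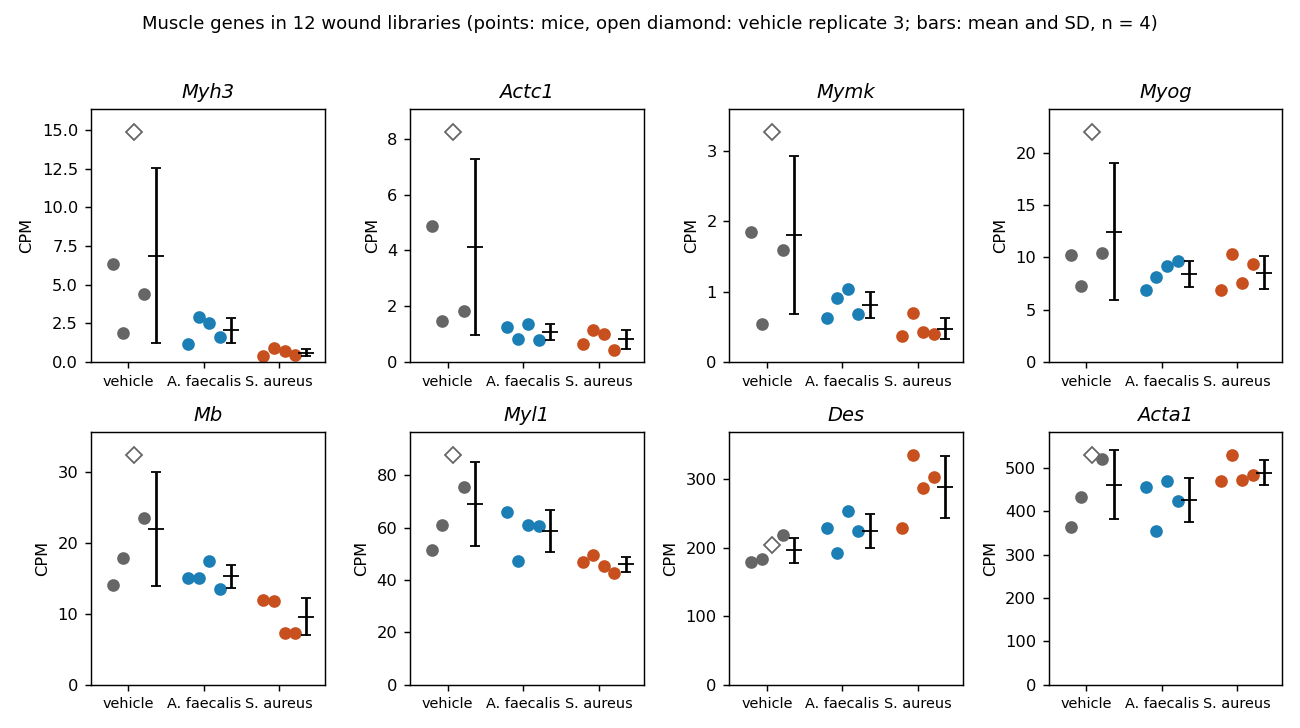
CPM (vertical axes, each from 0) of 8 muscle genes in the vehicle, A. faecalis and S. aureus groups, with 1 point per mouse, vehicle replicate 3 as an open diamond, and the mean and SD of 4 mice beside each group. Myh3 lies at 0.418 to 0.898 CPM in the 4 S. aureus wounds and at 1.86 to 14.9 CPM with vehicle, Des is the only panel in which S. aureus lies above vehicle without overlap, and Acta1 overlaps between these groups.

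Of the genes for satellite cells, myoblasts and fusion, Myf6 counted among them, 1 of 6 fell with S. aureus. Mymk, the fusion protein, held 1.84, 0.536, 3.27 and 1.58 CPM with vehicle, 0.625, 0.904, 1.03 and 0.688 CPM with A. faecalis and 0.366, 0.691, 0.432 and 0.399 CPM with S. aureus. Vehicle replicate 2 lay inside the S. aureus range and the other 3 vehicle wounds lay above it. Mymk was 3.79-fold lower with S. aureus (log2 fold change -1.92, SE 0.45, adjusted p = 0.0302), and without vehicle replicate 3 the call was lost (log2 fold change -1.45, SE 0.39, adjusted p = 0.0565). None of its 31-base words occurs in another gene.

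Myog, the factor that drives myoblasts into differentiation, did not pass the test. It held 10.2, 7.28, 21.99 and 10.4 CPM with vehicle, 6.85, 8.08, 9.22 and 9.61 CPM with A. faecalis and 6.87, 10.3, 7.57 and 9.36 CPM with S. aureus, and all but vehicle replicate 3 lay within 6.85 to 10.4 CPM. Its difference between S. aureus and vehicle was -0.55 (95% interval -1.18 to 0.09; adjusted p = 0.249) with all libraries and -0.10 (95% interval -0.50 to 0.29; adjusted p = 0.78) without that one. Myod1, the factor of activated myoblasts, held 3.45, 2.70, 7.15 and 3.28 CPM with vehicle, 1.74, 3.33, 2.98 and 2.94 CPM with A. faecalis and 1.70, 3.44, 1.55 and 1.61 CPM with S. aureus. S. aureus replicate 2 overlapped with vehicle while the other 3 S. aureus wounds lay below all 4 vehicle wounds (log2 fold change -0.99, SE 0.36, adjusted p = 0.104; -0.57 without vehicle replicate 3).

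Myf6, a factor of the same family that mature fibres keep, held 4.18, 4.00, 3.93 and 7.87 CPM with vehicle, 4.34, 4.02, 4.51 and 7.80 CPM with A. faecalis and 4.88, 8.31, 5.11 and 4.31 CPM with S. aureus. In each group 1 mouse lay at 7.8 to 8.31 CPM and the other 3 at 3.93 to 5.11 CPM, so the groups overlapped throughout (log2 fold change 0.18, SE 0.30, adjusted p = 0.743; 0.10 without vehicle replicate 3). Pax7, which marks satellite cells, was scarce at 0.364, 0.613, 0.868 and 0.765 CPM with vehicle, 0.152, 0.660, 0.253 and 0.0712 CPM with A. faecalis and 0.549, 0.518, 0.406 and 0.190 CPM with S. aureus. Its lowest library held 3 counts, and the 95% interval for S. aureus against vehicle ran from -1.84 to 0.53 on the log2 scale (adjusted p = 0.471), and from -1.76 to 0.81 without vehicle replicate 3. Myf5, the earliest factor of the family, lay at 0.0784 to 0.316 CPM and also had 3 counts in its lowest library (log2 fold change -0.73, SE 0.43, adjusted p = 0.305; -0.51 without vehicle replicate 3).

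The adult contractile genes include the most abundant members. Per kb of transcript Acta1, the skeletal actin, was first of the 38 and Mylpf, the fast regulatory light chain, second, at 319 and 129 CPM per kb in vehicle wounds. Des rose with S. aureus. It encodes desmin, the intermediate filament of muscle, which smooth muscle cells also express. Des held 179.6, 184, 204 and 218 CPM with vehicle, 229, 193, 254 and 224 CPM with A. faecalis and 229, 336, 287 and 303 CPM with S. aureus. The lowest S. aureus wound lay above the highest vehicle wound, and Des was 1.47-fold higher (log2 fold change 0.56, SE 0.13, adjusted p = 0.0267; 0.59 and adjusted p = 0.0386 without vehicle replicate 3). The 10 smooth muscle markers, Des and Tpm2 among them, summed to 594 to 755 CPM with vehicle, 549 to 740.1 CPM with A. faecalis and 701 to 813 CPM with S. aureus. Without Des itself the other 9 summed to 396 to 551 CPM with vehicle and 469 to 479 CPM with S. aureus, inside the vehicle range. Of these 10 only Des passed edgeR's test; the smooth muscle actin Acta2 differed by 0.28 (adjusted p = 0.213) and the smooth muscle myosin Myh11 by -0.46 (adjusted p = 0.166).

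Myl1, the essential light chain of fast fibres, held 51.4, 61, 87.9 and 75.5 CPM with vehicle, 66.2, 47.4, 60.9 and 60.7 CPM with A. faecalis and 46.9, 49.5, 45.5 and 42.6 CPM with S. aureus. The S. aureus wounds lay together below all vehicle wounds, 1.5-fold lower (log2 fold change -0.58, SE 0.15, adjusted p = 0.044). Without vehicle replicate 3 the groups still did not overlap but the call was lost (log2 fold change -0.43, SE 0.14, adjusted p = 0.0948). Myl1 was called in 6 of 20 alternatives, and leaving out any 1 library other than vehicle replicate 1 or A. faecalis replicate 2 ended its call. In sequence, 28.4% of its 31-base words occur in the pseudogene Mylf-ps. Acta1 held 363, 433, 528 and 520.4 CPM with vehicle, 456, 354, 468 and 424 CPM with A. faecalis and 470.3, 530.1, 472 and 483 CPM with S. aureus, a 1.5-fold range over the 12 wounds. Its difference between S. aureus and vehicle was 0.08 (95% interval -0.20 to 0.37; adjusted p = 0.723), and 0.17 without vehicle replicate 3. Ttn, the giant spring of the sarcomere, held 697, 942, 1265 and 1203 CPM with vehicle, 690.4, 660.1, 1062 and 763 CPM with A. faecalis and 697, 822, 502 and 622 CPM with S. aureus. S. aureus replicate 2 lay inside the vehicle range, and the difference did not pass the test (log2 fold change -0.64, SE 0.22, adjusted p = 0.09; -0.50 without vehicle replicate 3).

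The other 15 adult contractile genes did not pass edgeR's test with S. aureus; the DESeq2 Wald test called 2 of them lower, Myh2 and Tnnc2. The fast troponins Tnnt3, Tnni2 and Tnnc2 differed by -0.34, -0.37 and -0.71 on the log2 scale, with adjusted p of 0.104, 0.153 and 0.0759. Their slow counterparts Tnnt1, Tnni1 and Tnnc1, all at 1.16 to 4.02 CPM, differed by -0.33, 0.06 and -0.09, with adjusted p of 0.397 or higher. Without vehicle replicate 3 the fast troponins differed by -0.28, -0.26 and -0.69 and the slow ones by -0.41, 0.39 and 0.00. None of them was called then either. For Tnni1 (adjusted p = 0.222) the S. aureus wounds then lay above the vehicle wounds without overlap. The Z-disc crosslinkers Actn2 and Actn3 differed by -0.23 and -0.17, and the thin filament ruler Neb by -0.22. The tropomyosin Tpm2, shared with smooth muscle, differed by -0.04 and Mylpf by -0.36 (adjusted p = 0.167). The 4 adult myosin heavy chains are given with the myosin make-up.

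None of the 4 genes of calcium handling passed edgeR's test with S. aureus under TMM scaling with all 12 libraries. At an unadjusted p under 0.05 stood 2 of them, Casq1 and Pvalb. The DESeq2 Wald test called both lower, as did edgeR without vehicle replicate 1, and edgeR with upper-quartile scaling called Casq1. Atp2a1, the calcium pump of the fast sarcoplasmic reticulum, held 144, 174, 285 and 187 CPM with vehicle, 189, 198, 222 and 206 CPM with A. faecalis and 179, 185, 199 and 198 CPM with S. aureus, with a difference of -0.05 (95% interval -0.42 to 0.31; adjusted p = 0.871) and of 0.20 (95% interval -0.02 to 0.42; adjusted p = 0.268) without vehicle replicate 3. Its S. aureus wounds were closely spaced inside the vehicle range. Ryr1, the calcium release channel, held 42.3, 43.9, 77.8 and 53.6 CPM with vehicle, 41.2, 46.1, 57.9 and 48.6 CPM with A. faecalis and 46.5, 66.3, 54.5 and 50.5 CPM with S. aureus (log2 fold change 0.00, SE 0.19, adjusted p = 0.996; 0.24 without vehicle replicate 3), and its groups overlapped. Casq1, which stores calcium in the reticulum, held 12.6, 17.3, 31.5 and 25.2 CPM with vehicle, 12.8, 13.97, 16.9 and 12.9 CPM with A. faecalis and 14.1, 13.1, 11.2 and 10.1 CPM with S. aureus. Vehicle replicate 1 overlapped with S. aureus and the other 3 vehicle wounds were higher (log2 fold change -0.84, SE 0.24, adjusted p = 0.0569; -0.58 and adjusted p = 0.122 without vehicle replicate 3). Pvalb, the calcium buffer of fast fibres, held 9.77, 20.5, 35.05 and 21.6 CPM with vehicle, 20.7, 18.8, 16.05 and 13.05 CPM with A. faecalis and 13.6, 10.7, 10.5 and 12.4 CPM with S. aureus. Vehicle replicate 1 was the lowest of the 12 and the other 3 vehicle wounds lay above S. aureus (log2 fold change -0.88, SE 0.30, adjusted p = 0.0871; -0.53 and adjusted p = 0.225 without vehicle replicate 3).

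Of the 4 genes of energy supply, Mb fell with S. aureus. Mb encodes myoglobin, the oxygen store of oxidative fibres. It held 14.04, 17.9, 32.4 and 23.6 CPM with vehicle, 15.01, 15.1, 17.5 and 13.5 CPM with A. faecalis and 11.9, 11.8, 7.37 and 7.31 CPM with S. aureus. All S. aureus wounds lay below all wounds of the other groups, 2.29-fold below vehicle (log2 fold change -1.19, SE 0.25, adjusted p = 0.0227) and 1.9-fold below it without vehicle replicate 3 (adjusted p = 0.0342). Brown adipocytes also express Mb. The 5 brown fat markers summed to 24.5 to 65.3 CPM with vehicle, 16.9 to 24.1 CPM with A. faecalis and 8.1 to 24.8 CPM with S. aureus, and none of them passed edgeR's test. With S. aureus 4 of the 5 had an unadjusted p under 0.05, all lower, beside 27% of all genes, with a median log2 fold change of -1.12; without vehicle replicate 3 it was 2 of 5, beside 23.3% of all genes, with a median of -0.86. Cox8b is in this set and also among the muscle energy genes given below, so the set is not free of muscle genes. The part of these markers in the Mb result was not tested. Of these, Ucp1, the defining uncoupling protein, held 12.98, 19.1, 44.98 and 21.3 CPM with vehicle and 14.4, 4.89, 3.17 and 3.74 CPM with S. aureus (log2 fold change -1.91, SE 0.55, adjusted p = 0.0582; -1.44 and adjusted p = 0.128 without vehicle replicate 3).

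Ckm, the muscle creatine kinase, held 37.1, 54.7, 85.5 and 55.4 CPM with vehicle, 72.7, 55.95, 57.5 and 48.4 CPM with A. faecalis and 49.9, 64.7, 50.5 and 53.1 CPM with S. aureus, with a difference of -0.09 (95% interval -0.56 to 0.37; adjusted p = 0.817), and of 0.17 without vehicle replicate 3. Its groups overlapped. Pygm, which breaks down glycogen, held 27.1, 33.4, 54.2 and 37.96 CPM with vehicle, 33.6, 34.9, 41.7 and 33.6 CPM with A. faecalis and 26.3, 29.1, 25.4 and 29.9 CPM with S. aureus (log2 fold change -0.46, SE 0.17, adjusted p = 0.115; -0.23 without vehicle replicate 3), and vehicle replicate 1 lay inside the S. aureus range. Eno3, the muscle enolase, held 22.6, 29.9, 46.1 and 32.8 CPM with vehicle, 29.3, 26.1, 27.4 and 22.04 CPM with A. faecalis and 23.3, 24.9, 22.3 and 16.7 CPM with S. aureus (log2 fold change -0.59, SE 0.19, adjusted p = 0.081; -0.37 and adjusted p = 0.193 without vehicle replicate 3). Again only vehicle replicate 1 lay inside the S. aureus range.

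Leaving out vehicle replicate 3 reduced the calls with S. aureus from 6 to 4 of 38: Myh3, Actc1 and Mb still fell and Des rose, while Mymk and Myl1 no longer passed. That is 2 of 11 regeneration genes (18.2%) and 2 of 27 adult genes (7.41%), beside 5.29% of 18385 genes tested. At an unadjusted p under 0.05 stood 12 of the 38 (31.6%), 11 of them lower, beside 23.3% of all genes. The median log2 fold change moved to -0.51 over the regeneration genes and -0.23 over the adult genes, with -0.01 over all genes. As a mean over the genes of log2 CPM relative to each gene's own average, the regeneration genes stood at 0.47, -0.12, 1.26 and 0.60 in the 4 vehicle wounds, -0.36, -0.02, 0.02 and -0.29 with A. faecalis, and -0.66, 0.16, -0.42 and -0.65 with S. aureus. Vehicle replicate 2 was below S. aureus replicate 2 on this score. The adult genes stood at -0.16, 0.03, 0.52 and 0.31 with vehicle, 0.03, -0.11, 0.12 and -0.04 with A. faecalis, and -0.18, -0.04, -0.18 and -0.30 with S. aureus. These scores are descriptions and carry no test.

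**Figure D2:**
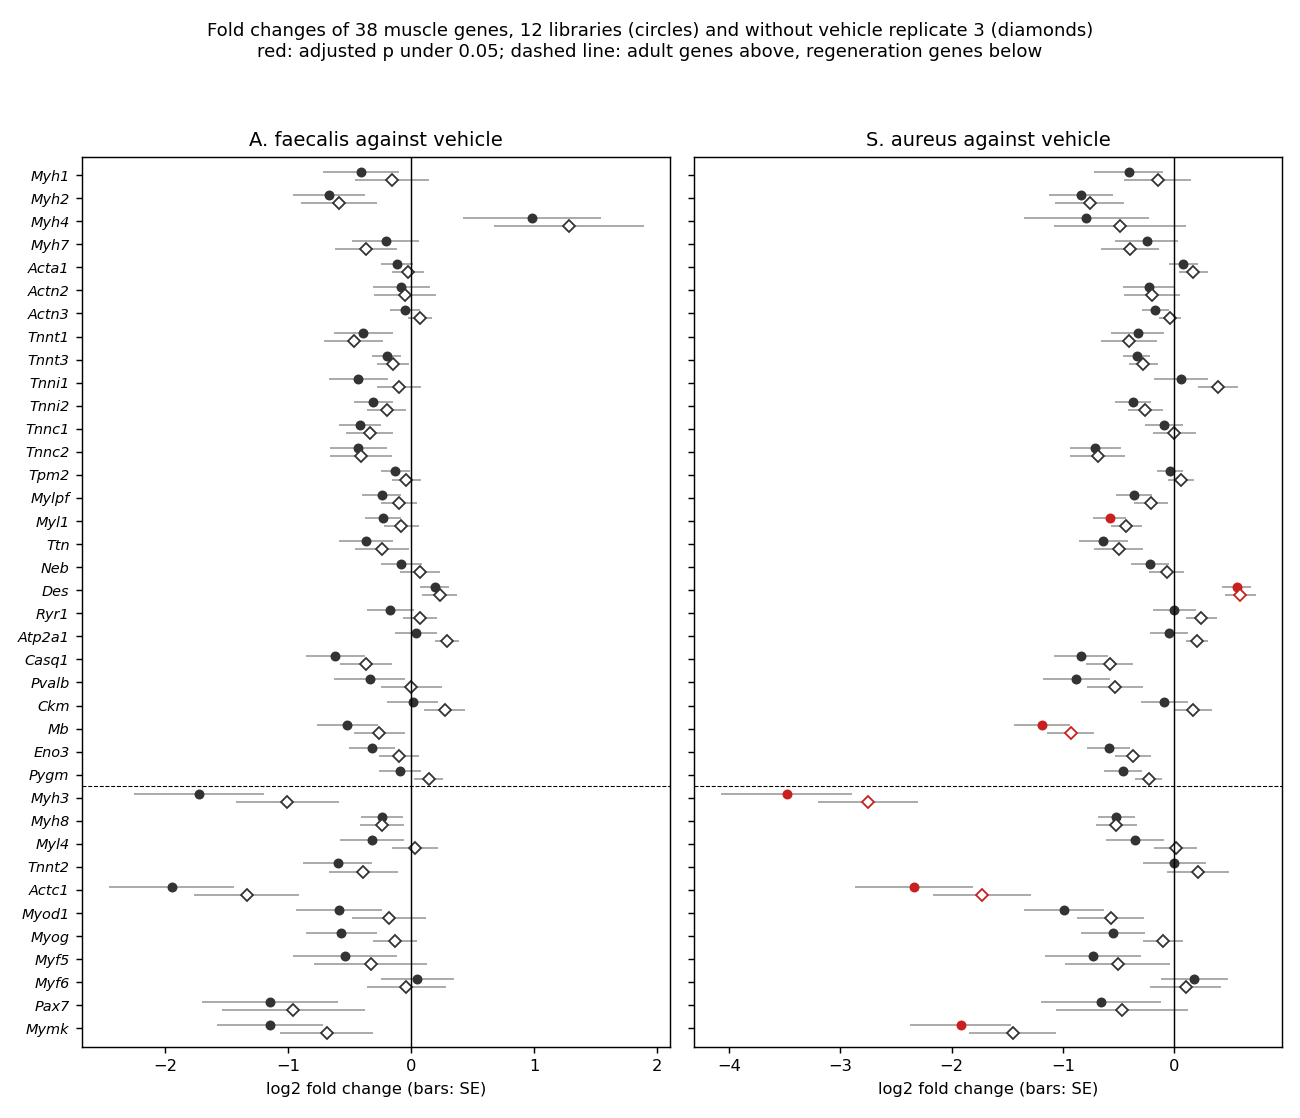
Log2 fold change (horizontal axis, bars are SE) of each of the 38 genes (rows, adult above the dashed line, regeneration below) for A. faecalis and S. aureus against vehicle, with all 12 libraries as circles and without vehicle replicate 3 as open diamonds, red where the adjusted p was under 0.05. In the S. aureus panel Myh3 moves from -3.48 to -2.75 and Des from 0.56 to 0.59 when that library is left out, and no symbol in the A. faecalis panel is red.

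With A. faecalis, 0 of the 38 genes passed edgeR's quasi-likelihood test against vehicle, beside 0.011% of all genes, which is 2 of 18218. Both treated groups were compared with the same 4 vehicle wounds, so their values share that error. At an unadjusted p under 0.05 stood 6 of the 38, all lower, 3 of 27 adult (11.1%) and 3 of 11 regeneration genes (27.3%), beside 7.68% of all genes. Without vehicle replicate 3 it was 3 of the 38 (7.89%), beside 7.27% of all genes: Myh3 and Actc1 were lower and Atp2a1 was higher (log2 fold change 0.29, SE 0.10, adjusted p = 0.587). The DESeq2 Wald test called 1 of the 38 (2.63%), Actc1 (adjusted p = 0.0261), beside 0.659% of all genes, and limma-voom called 0, beside 0.011%. The groups did not overlap for 2 genes, Tnnc1 and Actc1 (5.26%), beside 4.05% of all genes. This held for 5 without vehicle replicate 3 (13.2%), Tnnc1, Actc1, Myh4, Myh7 and Atp2a1, beside 8.08% of all genes. The median log2 fold change was -0.59 over the regeneration genes and -0.23 over the adult genes, and -0.33 and -0.10 without vehicle replicate 3, when again none was called beside 0.0163% of all genes. Over all genes it was -0.03 with that library and 0.01 without it.

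The lowest fold changes with A. faecalis were those of Actc1 (log2 fold change -1.95, SE 0.51, adjusted p = 0.419; -1.34 without vehicle replicate 3) and Myh3 (log2 fold change -1.73, SE 0.53, adjusted p = 0.519; -1.01 without it). For Myh3, A. faecalis replicates 2 and 3 lay above vehicle replicate 2, so these groups overlapped. Mymk and Pax7 both differed by -1.15, with 95% intervals of -2.08 to -0.22 for Mymk (adjusted p = 0.59) and -2.34 to 0.04 for Pax7 (adjusted p = 0.652). Acta1 differed by -0.12 (95% interval -0.40 to 0.17, adjusted p = 0.831), Mb by -0.52 (adjusted p = 0.652) and Des by 0.19 (adjusted p = 0.716). Without vehicle replicate 3 these 3 differed by -0.03, -0.26 and 0.23. Myog differed by -0.57 (adjusted p = 0.665), Myod1 by -0.59 (adjusted p = 0.694) and Myh8 by -0.24 (adjusted p = 0.734). Without that library these differences were -0.13, -0.18 and -0.24. A p that misses the threshold does not show that these levels were alike.

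Between the 2 bacteria, 0 of the 38 genes passed edgeR's quasi-likelihood test with all 12 libraries in the fit, beside 12.7% of all genes. At an unadjusted p under 0.05 stood 5 of the 38 (13.2%), beside 28.2% of all genes. The groups did not overlap for 6 genes (15.8%), Myh4, Acta1, Tnni1, Mb, Pygm and Myh3, beside 23.3% of all genes, so both shares were below the background. Closest to the threshold were Myh4 (log2 fold change -1.78, SE 0.57, adjusted p = 0.064), Myh3 (log2 fold change -1.75, SE 0.58, adjusted p = 0.0679) and Des (log2 fold change 0.36, SE 0.12, adjusted p = 0.0793). When vehicle replicate 3 was left out, a library of neither group whose spread enters the shared estimate, 3 of 38 genes were called, all lower with S. aureus than with A. faecalis, beside 18.8% of all genes in either direction and 8.65% lower: Myh3 (adjusted p = 0.018), Mb (adjusted p = 0.0392) and Pygm (adjusted p = 0.042). With all libraries the DESeq2 Wald test called 3 of the 38 (7.89%), Myh3, Myh4 and Des, beside 19.1% of all genes, and limma-voom called 1 (2.63%), Myh4, beside 12.1%. The median was -0.19 over the regeneration genes, -0.12 over the adult genes and -0.02 over all genes.

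**Figure D3:**
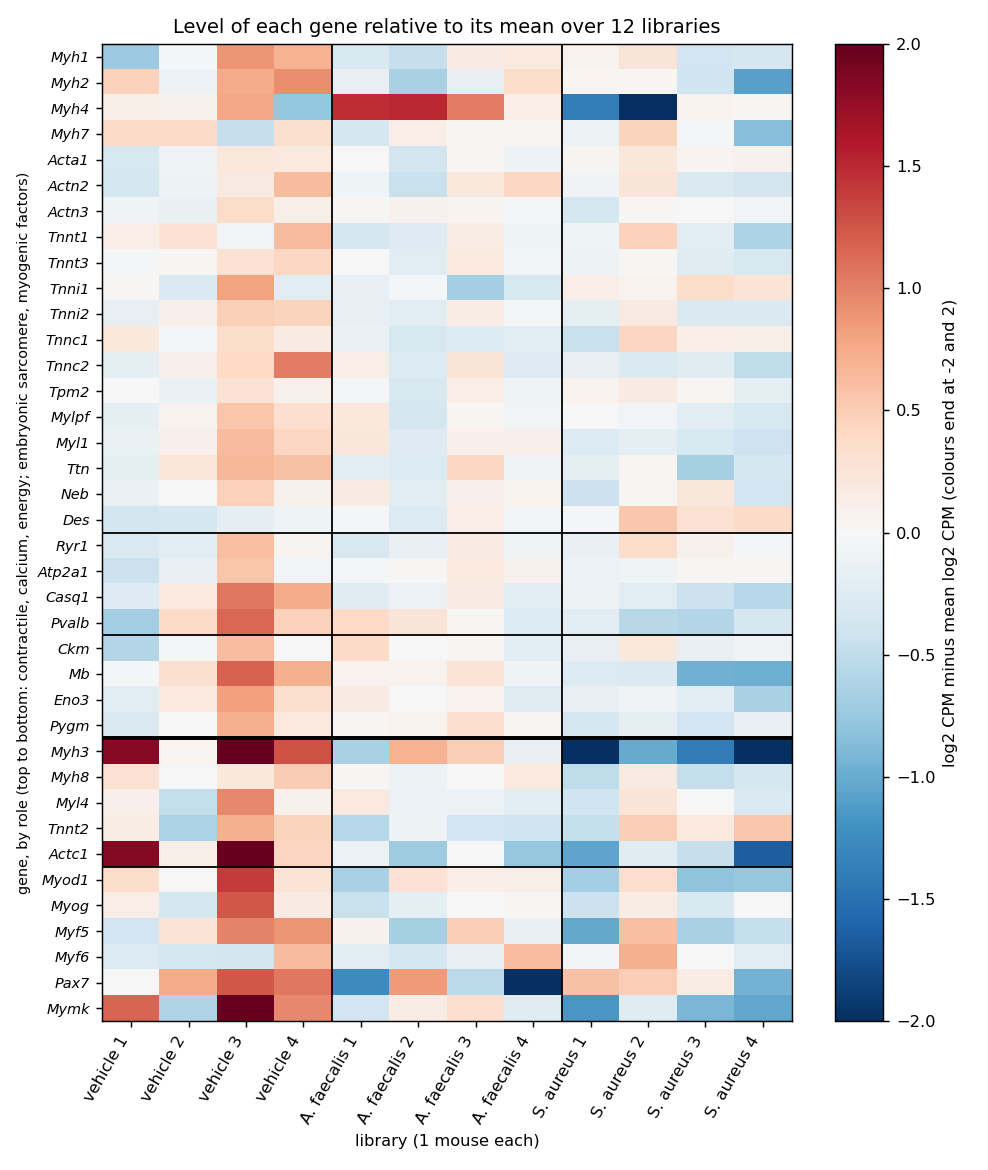
Level of the 38 genes (rows, grouped by role) in the 12 libraries (columns, 1 mouse each) as log2 CPM minus the mean of that gene over the 12 libraries, with colours ending at -2 and 2. Vehicle replicate 3 is red in most rows, with the highest value in 17 of 27 adult and 9 of 11 regeneration genes, and the strongest blue stands in Myh3 in S. aureus replicates 1 and 4, Myh4 in S. aureus replicate 2 and Pax7 in A. faecalis replicate 4.

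The make-up of the 6 skeletal myosin heavy chains was computed per kb of transcript in each library. Myh3, Myh2, Myh1, Myh4 and Myh8 lie in that order in 1 cluster on chromosome 11. Myh1, the fast 2X chain, made up 69.9% ± 9.40 of the 6 with vehicle, 64.7% ± 7.83 with A. faecalis and 77.5% ± 4.87 with S. aureus (SD, n = 4). The slow chain Myh7 never passed 0.701%. Myh3 made up 2.15% ± 1.37 with vehicle, 0.811% ± 0.371 with A. faecalis and 0.280% ± 0.0879 with S. aureus. In single wounds its share was 3.32, 0.783, 3.34 and 1.16% with vehicle and 0.178, 0.347, 0.359 and 0.236% with S. aureus. Myh8 lay at 1.34% to 3.30% over all 12.

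Myh4, the fast 2B chain, varied most among the adult genes, 23.8-fold over the 12 wounds. It held 25.1, 24.6, 39.3 and 13.5 CPM with vehicle, 64.7, 65.9, 46.8 and 25.4 CPM with A. faecalis and 8.86, 2.76, 24.2 and 23.5 CPM with S. aureus. Each A. faecalis wound lay above each S. aureus wound, while vehicle overlapped with both. Its log2 fold change was 0.98 with A. faecalis (95% interval -0.24 to 2.21, adjusted p = 0.689) and -0.79 with S. aureus (95% interval -2.02 to 0.44, adjusted p = 0.397). Without vehicle replicate 3 it was 1.28 with A. faecalis (adjusted p = 0.701) and -0.49 with S. aureus (adjusted p = 0.668). Myh1 differed by -0.41 and -0.41 (adjusted p = 0.742 and 0.428), Myh2, the fast 2A chain, by -0.67 and -0.84 (adjusted p = 0.632 and 0.0911), and Myh7 by -0.21 and -0.25 (adjusted p = 0.855 and 0.599). These chains share 30.4% (Myh4) to 39.7% (Myh1) of their 31-base words with other genes, so reads can be divided unevenly between them.

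**Figure D4:**
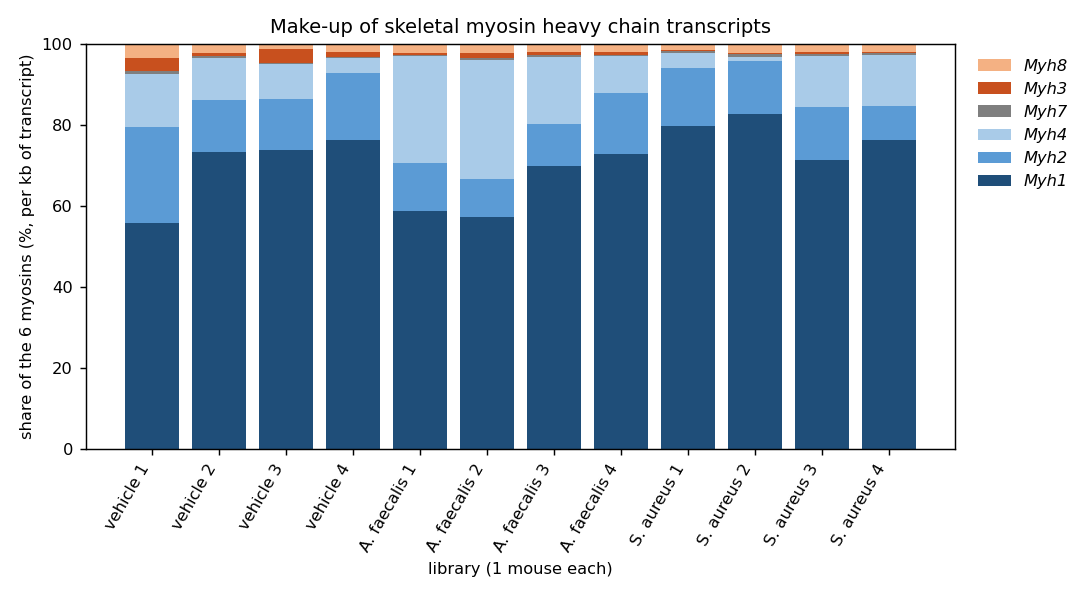
Share (%) of each of 6 skeletal myosin heavy chains in their sum, per kb of transcript, in each of the 12 libraries (bars, 1 mouse each). Myh1 takes 55.9% to 82.7% of every bar, Myh4 is 29.4% in A. faecalis replicate 2 and 1.07% in S. aureus replicate 2, and the Myh3 band is 0.783% to 3.34% with vehicle and 0.178% to 0.359% with S. aureus.

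Of 99 other genes expressed in skeletal muscle, 98 were tested. Which cells of the wound these transcripts came from was not tested. With S. aureus 1 rose and 5 fell against vehicle (6.12%, beside 6.84% of all genes). Without vehicle replicate 3 the count was 2 higher and 2 lower (4.08%, beside 5.29% of all genes): Fabp3 and Colq still fell and Calcr rose, Smpx, Cox7a1 and Lrp4 no longer passed, and the atrophy ligase Fbxo32 rose (log2 fold change 0.52, SE 0.12, adjusted p = 0.0375). With all libraries, 37 of the 98 (37.8%) had an unadjusted p under 0.05, 33 of them lower, beside 27% of all genes. The median log2 fold change of the 98 was -0.31, beside -0.04 over all genes. Without vehicle replicate 3 there were 19 (19.4%), 15 of them lower, beside 23.3% of all genes. The median was then -0.16, beside -0.01 over all genes. By list, 1 of 25 further sarcomere genes fell, Smpx (log2 fold change -0.70, SE 0.18, adjusted p = 0.0437), a costamere protein. None of 15 tested genes of excitation, 9 of the membrane complex and 11 of stress and atrophy passed edgeR's test with all libraries. Of these, 6 (40%), 2 (22.2%) and 4 (36.4%) had an unadjusted p under 0.05, beside 27% of all genes. Lower among them were 6, 2 and 2. Without vehicle replicate 3 the counts were 5, 1 and 3, beside 23.3%, and 5, 0 and 1 of them were lower. In the sarcomere, energy and synapse lists 10 (40%), 6 (46.2%) and 4 (36.4%) had an unadjusted p under 0.05, 9, 6 and 4 of them lower. Without vehicle replicate 3 these were 2 (8%), 4 (30.8%) and 2 (18.2%), all lower. Of 13 energy genes 2 fell, the fatty acid carrier Fabp3 (log2 fold change -1.07, SE 0.19, adjusted p = 0.0114) and Cox7a1 (log2 fold change -0.80, SE 0.18, adjusted p = 0.029), a cytochrome oxidase subunit of heart and skeletal muscle; both are also expressed in brown fat. Of 11 genes of the nerve-muscle synapse 2 fell, Colq (log2 fold change -0.82, SE 0.17, adjusted p = 0.0209), the collagen tail of acetylcholinesterase, and Lrp4 (log2 fold change -0.56, SE 0.14, adjusted p = 0.0353), the agrin receptor. Of 15 myogenic genes 1 rose, Calcr (log2 fold change 1.83, SE 0.31, adjusted p = 0.0107), the calcitonin receptor of resting satellite cells, at 0.166 ± 0.0528 CPM with vehicle and 0.591 ± 0.133 CPM with S. aureus (SD, n = 4). Of these 15, 5 (33.3%) had an unadjusted p under 0.05, 4 of them lower, beside 27% of all genes. Without vehicle replicate 3 it was 2 (13.3%), 1 of them lower, beside 23.3%. Pax7, which also marks satellite cells, did not pass the test. Its mean was 0.65 CPM with vehicle and 0.42 CPM with S. aureus. Whether satellite cells differed in number was not tested.

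With A. faecalis 1 of the 98 was called, Colq, which rose 3.13-fold (log2 fold change 1.65, SE 0.17, adjusted p = 0.0038) and held 10.5, 8.76, 8.78 and 7.04 CPM there against 3.31, 2.62, 2.62 and 2.64 CPM with vehicle and 1.72, 1.87, 1.22 and 1.52 CPM with S. aureus. The 3 groups of Colq did not overlap. Its rise is 1 of the 2 calls of that comparison over all genes and was also called without vehicle replicate 3 (adjusted p = 0.0187). With the replicate number as a block its adjusted p was 0.0137 with all 12 libraries and 0.188 with only these 2 groups in the fit (log2 fold change 1.65, SE 0.14), where 0 of 17919 genes were called. Between the bacteria, 3 of the 98 were higher with S. aureus, Calcr (1.75, adjusted p = 0.00475), the slow regulatory light chain Myl2 (1.80, adjusted p = 0.0197) and Fbxo32 (0.50, adjusted p = 0.0278). Lower were Colq (-2.47, adjusted p = 6.98e-05) and Fabp3 (-0.82, adjusted p = 0.0155). Together these were 5.1% of the 98, beside 12.7% of all genes. Leaving out vehicle replicate 3 gave 8 of the 98 (8.16%), beside 18.8%. Myl2 was scarce, at 0.2197, 0.2583, 0.3485 and 0.2135 CPM with A. faecalis and 0.3135, 1.088, 1.423 and 0.8356 CPM with S. aureus. S. aureus replicate 1 lay below A. faecalis replicate 3. Vehicle wounds, at 0.6073, 0.2299, 0.5837 and 0.5464 CPM, overlapped with both groups.

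Markers of other cells differed between the groups as well. The 11 neutrophil markers summed to 840.4 to 9607 CPM with vehicle, 2216 to 4913 CPM with A. faecalis and 10210 to 16270 CPM with S. aureus. With S. aureus 2 of the 11 rose against vehicle (18.2%, beside 6.84% of all genes called). Without vehicle replicate 3 it was 1 of 11 (9.09%, beside 5.29%). At an unadjusted p under 0.05 stood 8 of the 11 (72.7%), all higher, beside 27% of all genes. Without that library it was 7 (63.6%), beside 23.3%. The groups did not overlap for 6 of the 11 (54.5%), beside 15.1% of all genes. The 12 adipocyte markers summed to 3888 to 16830 CPM with vehicle, 4343 to 6565 CPM with A. faecalis and 2395 to 4427 CPM with S. aureus. None of the 12 passed edgeR's test against vehicle, although with S. aureus 11 of them had an unadjusted p under 0.05, all lower, beside 27% of all genes. Without vehicle replicate 3 it was 4 of the 12, beside 23.3%, and their median log2 fold change moved from -1.18 to -0.37. CPM are shares of a library, and the part of these cells in the muscle results was not tested. The 8 basal keratinocyte markers summed to 1948 to 2880 CPM with vehicle, 1523 to 1904 CPM with A. faecalis, without overlap with vehicle, and 1485 to 2950 CPM with S. aureus. Of the 8, 5 had an unadjusted p under 0.05 with A. faecalis, all lower (62.5%, beside 7.68% of all genes), and none passed edgeR's test. With S. aureus Krt15 alone of these 8 passed it (log2 fold change -4.23, SE 0.61, adjusted p = 0.00791). Of the cardiac markers, 6 of 7 passed the filter, and the alpha myosin Myh6, which shares 31.7% of the 31-base words of Myh7, was at 0 in 11 libraries and 0.0316 CPM in vehicle replicate 3.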

How the data were processed

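RNA of 12 day-3 wounds, 4 mice per group per the series design text, was read from a deposited table of estimated counts per gene. The submitters' processing notes name kallisto 0.48.0, FastQC 0.12.1, R 4.1.3, DESeq2 1.34.0 and build GRCm39 without roles. The way the authors combined transcripts into genes and their use of strand are not given in the sources used here. Estimated counts were rounded to whole numbers, and 1 entry with no gene name (0.00909% to 0.0151% of a library) was left out. Replicates within a group differed by 28.0 to 460 per degree of freedom in a chi-square comparison, far above sampling noise.

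All 12 libraries entered 1 model in edgeR 4.0.16 (R 4.3.3) with a mean per group, TMM scaling, filterByExpr (minimum count 10, minimum total 15) and the robust quasi-likelihood test, two-sided, called at a Benjamini-Hochberg adjusted p under 0.05 over all 18218 genes tested. The scripts were tested on simulated data. Fold changes come from the model, with SE and 95% interval. The members and the other lists were chosen with earlier results of these data known. Genes given in full were those called, the 3 most abundant of each role, and Myh3, Myh8, Myog, Myod1, Mymk and Pax7; Casq1 and Myh4 were added after their values were seen. Of other muscle genes up to 3 called per list were named; Krt15 and the genes named without vehicle replicate 3 were also chosen after their values were seen. Transcript lengths and 31-base words (a length chosen here) came from GENCODE M21 on GRCm38, promoters from RefSeq on GRCm38.p6. Alternatives were DESeq2 size factors, upper-quartile scaling, the DESeq2 1.42.0 Wald test, limma-voom (limma 3.58.1), no low-count filter, a mean of at least 1 CPM, only the 2 groups compared, a block for the replicate number, and leaving out each library. The labels do not say what a replicate number marks. Over all genes, deviations of same-number libraries correlated above 0.1 in 4 of 4 pairs of vehicle and A. faecalis (0.12 to 0.29), which were therefore treated as paired in an added alternative, a block with only these 2 groups. That held in 2 of 4 pairs of vehicle and S. aureus and 0 of 4 between the bacteria, which were not taken as paired. Of the 8 vehicle and A. faecalis libraries, 2 correlated best with their own number. Pairs with different numbers in these 2 groups reached 0.36, so the correlations do not establish a pairing.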

Additional observations from a re-analysis of the deposited data

Results flagged for a closer look

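Of 114 sets of 4 values (38 genes in 3 groups), 6 held a library far from the other 3 of its group. Chance alone flags about 1 in 20 such sets. In vehicle wounds Myh7, the slow myosin heavy chain, was low in replicate 3 at 0.773 CPM. Myod1 was high in vehicle replicate 3 at 7.15 CPM and in S. aureus replicate 2 at 3.44 CPM. Myf6 was high in vehicle replicate 4 at 7.87 CPM and in A. faecalis replicate 4 at 7.8 CPM. Pygm was high in A. faecalis replicate 3 at 41.7 CPM.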

How the results depend on the processing

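For S. aureus against vehicle, Myh3 was called lower in all 20 alternatives (log2 fold change -3.77 to -2.75). Mb was called in 17, Des in 15, Actc1 in 13, Mymk in 11 and Myl1 in 6 of the 20. With only the 2 groups compared, 0 adult genes, 1 regeneration gene and 350 of all genes were called. With limma-voom it was 3 of the 38, the adult genes Mb and Des and the regeneration gene Myh3, and 1278 of all genes. The DESeq2 Wald test called 9 adult, 5 regeneration and 2876 of all genes. Leaving out 1 library gave 0 to 5 adult genes, 1 to 3 regeneration genes and 260 to 1750 of all genes; without S. aureus replicate 3 or replicate 4 only Myh3 remained (1 of 38), without vehicle replicate 1 there were 6 calls, 5 adult and 1 regeneration gene, and without S. aureus replicate 1 or replicate 2 there were 3. All-gene calls were 705 higher and 541 lower under TMM, 774 and 489 with DESeq2 size factors, and 619 and 679 with upper-quartile scaling. For A. faecalis against vehicle the DESeq2 Wald test called 1 regeneration gene and 120 of all genes (2 in edgeR), and leaving out 1 library 0 members and 2 to 10 of all genes (10 without vehicle replicate 2, 7 without vehicle replicate 4). With the replicate number as a block and only these 2 groups, an alternative chosen after seeing the data, 0 members and 0 of all genes were called, Colq no longer among them; with all 12 libraries the block gave 0 members and 2 of all genes. Between the bacteria, adult and regeneration calls were 2 and 1 with the DESeq2 Wald test (3474 of all genes), 1 and 0 with limma-voom (2205 of all genes), 4 and 1 with only the 2 groups compared, and 0 to 2 and 0 to 1 with 1 library left out (1313 to 3457 of all genes): 2 and 1 without vehicle replicate 3, 1 regeneration gene without vehicle replicate 2, and 1 adult gene without S. aureus replicate 1. The calls with only the 2 groups compared are 13.2% of the 38. The share of all genes called in that fit is not given here, so 13.2% cannot be read as above or below it. For the same comparison, upper-quartile scaling gave 1211 higher and 1124 lower of all genes, against 1388 and 922. With the replicate number as a block, S. aureus against vehicle gave 2 adult, 2 regeneration and 1038 of all genes, losing Myl1 and Mymk; the block changed no other call of a member. The causes were not tested. No called fold change of a member turned its direction; uncalled ones near 0 changed sign in 17, 29 and 25 of the recomputed values (A. faecalis, S. aureus, S. aureus against A. faecalis). Pax7 and Myf5 held 3 counts in their lowest library.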
